A study of Homo sapiens with 12 samples.

Results

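The proteasome genes are a set of 48 genes, the rows of a table of 26995 symbols whose symbol begins PSMA to PSMG and ends in a number. They were measured in BT549, an established triple-negative breast cancer cell line with mesenchymal features. In the control arm the siRNA pool had no target, and the knockdown arm had siRNA pools against both FOSL1 and JUN. Each arm was given the solvent DMSO or olaparib, an inhibitor of the DNA repair enzymes PARP1 and PARP2, for 48 h. FOSL1 and JUN encode partners in AP-1, a dimeric transcription factor. Each of the 4 groups held 3 libraries. All the cells come from 1 line, both genes were targeted together so their effects cannot be told apart, the dose of olaparib is not given in the sources used here, and only RNA was measured. The labels do not say whether the libraries of a group came from separate cultures, so the p-values measure the spread between these libraries, which may be technical.

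The proteasome is the protease of the cytosol and nucleus that degrades proteins tagged with ubiquitin. Its core is a barrel of alpha rings, which gate the entry, and beta rings, which hold the proteolytic sites. A regulatory cap sits on the barrel: its base unfolds the substrate with a ring of ATPases, and its lid removes the ubiquitin. Interferon induces alternative beta subunits that replace the constitutive proteolytic ones and make the immunoproteasome, along with activators that open the core without ATP. Dedicated chaperones build the core and the base. In many cells the subunit genes rise together when the proteasome is inhibited, through the transcription factor NFE2L1.

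Of the 48 genes, 43 passed the expression filter of more than 1 CPM (counts scaled to a common library size) in at least 3 libraries and were tested. They comprised 13 of 15 core genes, all 9 base genes, all 8 lid genes, all 7 assembly chaperones, all 5 activator and inhibitor genes, and 1 of 4 inducible or thymic subunits. Library totals ran from 13762783 to 39714918 counts, and the set took between 0.568% and 0.677% of a library. The within-group standard deviation of a tested gene on the log2 scale had a median of 0.0608 and ran from 0.0190 for PSMF1 to 0.190 for PSMG4. FOSL1 and JUN each read lower in all knockdown libraries than in any control library of the same treatment. FOSL1 read 74.8, 71.4 and 68.5 CPM under DMSO and 124, 136 and 117 CPM under olaparib in the control arm. FOSL1 in the knockdown arm read 29.02, 27.5 and 23.8 CPM under DMSO and 21.7, 22.3 and 19.2 CPM under olaparib. JUN ran from 155 to 174 CPM in control libraries and from 35.8 to 68.7 CPM in knockdown libraries. FOSL1 fell by 1.43 on the log2 scale with DMSO and by 2.57 with olaparib, and JUN fell by 1.38 and 1.95. Olaparib moved FOSL1 by 0.81 in control cells and by -0.32 in knockdown cells, both past the test (edgeR quasi-likelihood test with Benjamini-Hochberg adjustment, as for every adjusted p here). The 5 mesenchymal markers were all tested and summed to between 3615 and 5790 CPM. The 6 hormone receptor and epithelial markers summed to between 119.6 and 164.4 CPM. Most of this came from ERBB2, at 96.6 to 130.2 CPM, and KRT18, at 16.8 to 35.6 CPM. CDH1 read at most 1.48 CPM, and ESR1 and EPCAM at most 0.07 CPM. The progesterone receptor gene PGR was at 0 in all libraries, as were SPI1 and NKG7 among 8 white blood cell markers and CDH5, VWF and KDR of 4 endothelial ones. The white blood cell list summed to between 38.7 and 61.3 CPM in control libraries and between 18.2 and 26.2 CPM in knockdown libraries, most of it from CD68. The part of this sum in any proteasome result was not tested.

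RNA levels per gene length, in RPKM (CPM divided by the length in kilobases listed with the counts), spread widely between members. Averaged over the 12 libraries, the alpha-ring gene PSMA7 stood highest at 399 RPKM, followed by the structural beta-ring gene PSMB4 at 344 and the trypsin-like subunit gene PSMB7 at 218. The lowest were PSME4, which encodes a nuclear ATP-independent activator, at 13.0, the lid gene PSMD12 at 16.1 and the inhibitor gene PSMF1 at 16.2. The length listed for PSMF1 is 1.58 times its merged exons in a GENCODE annotation and lowers its RPKM. Among tested members the listed length ran from 0.10 of the merged exons, for the chaperone gene PSMG4, to that value, so the levels of genes against each other depend on the length used. By class, the median was 127 RPKM for the core, 53.2 for the base, 59.9 for the lid and 26.5 for the assembly chaperones, the last being the value of PSMG4. Core genes differed by up to 11.8-fold among themselves, base genes by up to 6.75-fold and lid genes by up to 7.77-fold.

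**Figure D1:**
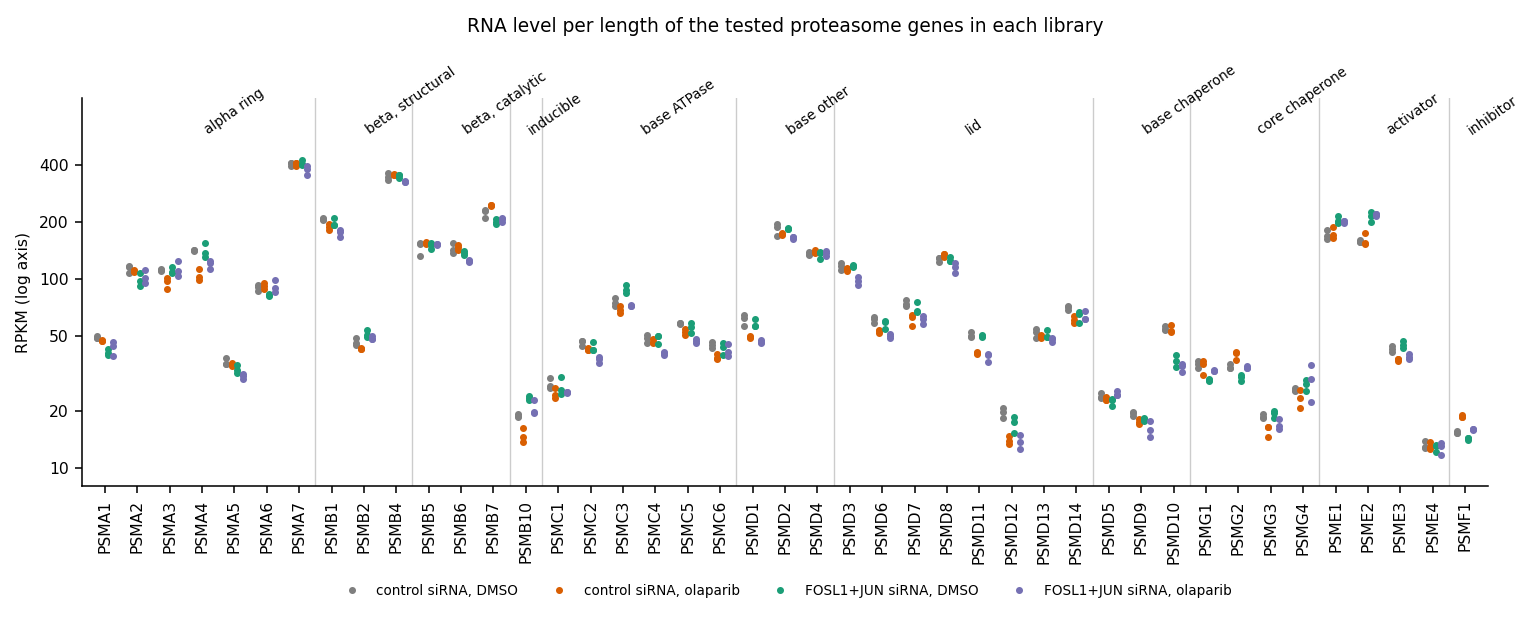
RNA level of each tested proteasome gene in RPKM on a log axis, with genes grouped by role along the horizontal axis and 1 point for each library, coloured by group. PSMA7 at a mean of 399 RPKM and PSME4 at 13.0 mark the ends of the range, and the points of 1 gene lie close together beside the differences between genes.

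The 5 untested members were near or at 0. PSMB9, an inducible subunit, and PSMB3, a structural beta-ring subunit that every proteasome contains, were listed at 0 counts in all 12 libraries. Since PSMB3 is an obligate subunit, its 0 is given only as a listed value. The inducible subunit PSMB8 had between 4 and 37 counts a library. PSMB8 and PSMB9 lie in the major histocompatibility region and, being untested, enter no count of calls. Their listed lengths are 14174 and 8377 bases, 4.73 and 2.73 times their merged exons in the GENCODE annotation, so these 2 rows may not reflect the genes' reads as other rows do. The thymic subunit PSMB11 and the testis-specific alpha subunit PSMA8 had at most 1 count in any library.

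Olaparib lowered more proteasome genes than it raised in both arms. In control cells, 15 of the 43 tested members fell and 3 rose with olaparib, beside 23.2% of all 12118 tested genes that fell and 23.6% that rose. In knockdown cells, 19 members fell and 5 rose, beside 24.0% of all genes that fell and 24.1% that rose. With 1 library left out the rises there numbered 1 to 6, and 1 without the second or the third olaparib library of knockdown cells. The median log2 fold change of the members was -0.07 in control cells, where that of all genes was -0.01, and -0.11 in knockdown cells, where it was again -0.01. The shifts were small: no member changed by more than 0.49 on the log2 scale in either arm. Of the 30 tested genes of the core, base and lid, 12 fell and 1 rose in control cells, and 16 fell and 1 rose in knockdown cells. The base and lid held most of these falls, with no rise among their 17 genes in either arm.

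The summed level of the core, base and lid genes gives the same picture by library. The sum came to 5421, 5098 and 5364 CPM under DMSO and 4950, 5025 and 4966 CPM under olaparib in the control arm. It came to 5323, 5106 and 5110.5 CPM under DMSO and 4679, 4772 and 4769 CPM under olaparib in the knockdown arm. Every olaparib library lay below every DMSO library of its arm. In bulk RNA, fewer cells of a kind and less RNA per cell cannot be told apart.

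On knockdown of FOSL1 and JUN members went in both directions, and with DMSO no more often than all genes did. With DMSO, 5 members rose and 6 fell (11.6% and 14.0%), beside 14.7% of all genes that rose and 15.2% that fell. With olaparib, 6 rose and 12 fell (14.0% and 27.9%), beside 19.0% and 19.3% of all genes. The members' medians were -0.06 in both settings, against medians of all genes of 0.00 with DMSO and 0.01 with olaparib. The members with the largest rises with DMSO were the immunoproteasome-associated genes PSME2, PSMB10 and PSME1, and with olaparib PSMB10, PSME2 and the alpha-ring gene PSMA3. The largest fall in both was in the base chaperone gene PSMD10.

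These counts depend on how libraries are scaled. The main scaling factors (TMM, which assumes that most genes do not change) were 0.937 to 0.943 in control cells with olaparib and 1.00 to 1.05 in the other groups. Scaled by library totals alone, the median of all genes moved to -0.11 in control cells and -0.06 in knockdown cells with olaparib, and to 0.06 and 0.11 for knockdown with DMSO and with olaparib. Members falling and rising with olaparib then numbered 26 and 1 in control cells, beside 4201 and 1886 of all 12118 genes. In knockdown cells they numbered 25 and 1, beside 3641 and 2340 of all genes. For knockdown, 6 rose and 3 fell with DMSO, beside 2484 and 1360 of all genes. On knockdown with olaparib 13 rose and 5 fell, beside 3832 and 1454 of all genes. Under that scaling 31.0% and 39.1% of all genes called with olaparib rose, and 64.6% and 72.5% of those called on knockdown, against 50.5%, 50.1%, 49.1% and 49.7% with TMM. Relative to the median of all genes, the members' median moved little, at -0.06 and -0.10 for olaparib and -0.06 and -0.07 for knockdown under either scaling. Of the 71 calls of members in the 4 comparisons, 39 held under every alternative tried and none changed sign. Those 39 were 9 of 18 for olaparib in control cells, 14 of 24 in knockdown cells, 7 of 11 for knockdown with DMSO and 9 of 18 with olaparib.

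**Figure D2:**
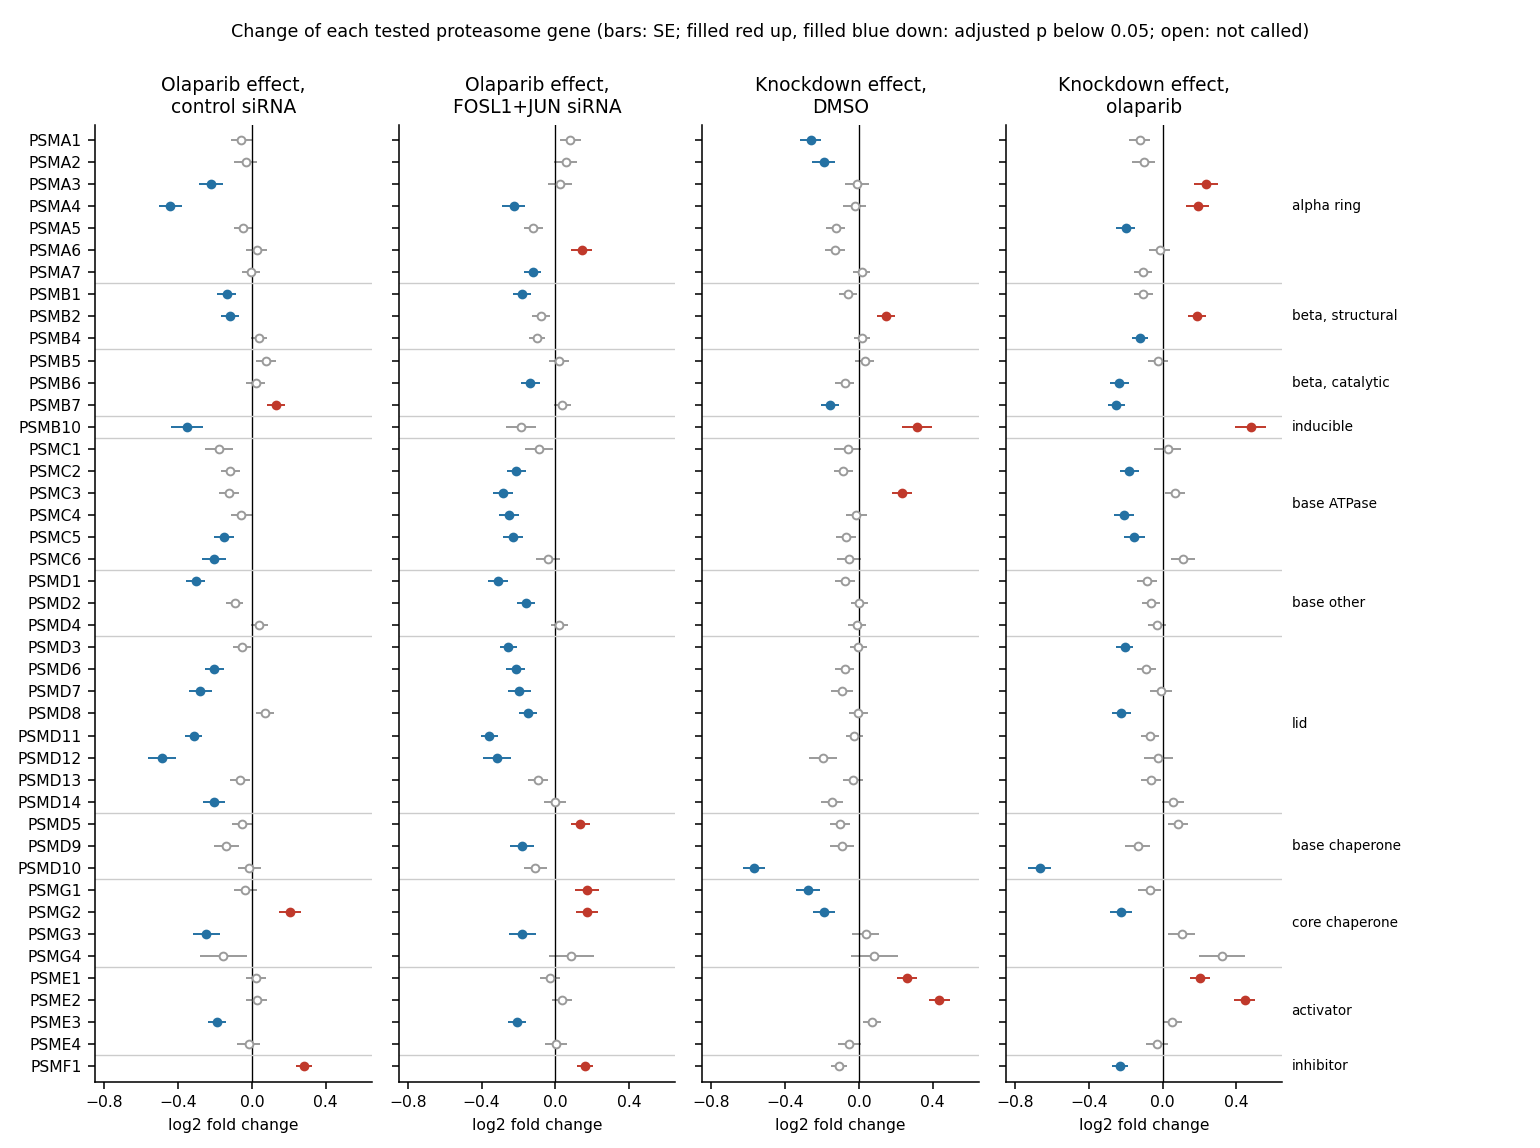
Log2 fold change of each tested proteasome gene in the 4 comparisons, with genes grouped by role on the vertical axis. Points are the fitted values and bars their standard errors, and filled red and blue points mark genes that rose or fell at an adjusted p below 0.05. The base and lid carry filled blue points and no red ones under olaparib in both arms, while PSMB10, PSME1 and PSME2 are red and PSMD10 is blue in both knockdown panels.

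In the alpha ring, olaparib lowered PSMA4 in both arms. Its levels in control cells were 202, 202 and 199 CPM with DMSO and 139, 145 and 159 CPM with olaparib. PSMA4 in the knockdown arm read 217, 183 and 193 CPM under DMSO and 159, 172 and 175 CPM under olaparib. The groups did not overlap in either arm, and the fall was 0.44 on the log2 scale in control cells (a log2 fold change of -0.44, SE 0.0623, adjusted p = 1.34e-05), and 0.23 in knockdown cells (-0.23, SE 0.0616, adjusted p = 0.00525). PSMA4 was the member of the core with the largest change under olaparib. Of the other alpha-ring genes, PSMA3 fell in control cells (-0.22, adjusted p = 0.00994), PSMA7 fell in knockdown cells (-0.12, adjusted p = 0.0369) and PSMA6 rose there (0.14, adjusted p = 0.0437). None of these was called in the other arm. The call of PSMA3 was lost without the second olaparib library of control cells (-0.16), that of PSMA7 under 9 of 20 alternatives and that of PSMA6 under 10 of 20.

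Knockdown lowered PSMA1 with DMSO. Its levels were 103, 99.8 and 100.2 CPM in control cells and 83.5, 81.7 and 87.2 CPM in knockdown cells, with no overlap. The log2 fold change was -0.26 (SE 0.0573, adjusted p = 0.00182). With olaparib its levels were 97.6, 96.3 and 96.7 CPM in control cells and 80.8, 90.8 and 95.2 CPM in knockdown cells, a log2 fold change of -0.12 with an adjusted p of 0.0991. PSMA3 was instead higher on knockdown with olaparib. Under olaparib PSMA3 read 97.0, 88.5 and 101 CPM in the control arm against 103, 110.4 and 125 CPM in the knockdown arm (0.24, SE 0.0654, adjusted p = 0.00789). The groups did not overlap, and without the second olaparib library of control cells the value was 0.19 and the call was lost. PSMA4 rose on knockdown with olaparib too (0.19, adjusted p = 0.0208), a call lost without the first (0.15) or second (0.18) olaparib library of control cells or the second (0.18) or the third (0.17) of knockdown cells. Smaller falls on knockdown were in PSMA2 with DMSO (-0.19, adjusted p = 0.0234, lost under 5 of 20 alternatives) and PSMA5 with olaparib (-0.20, adjusted p = 0.0046, lost under library totals at -0.10).

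In the beta ring, the genes of the constitutive proteolytic sites are PSMB5 (chymotrypsin-like), PSMB6 (caspase-like) and PSMB7 (trypsin-like). PSMB5 passed the test in none of the 4 comparisons. PSMB7 read 233, 212 and 234 CPM under DMSO and 248, 249 and 247 CPM under olaparib in the control arm. PSMB7 in the knockdown arm read 209, 202 and 198 CPM under DMSO and 203, 212 and 210.4 CPM under olaparib. Knockdown libraries lay below control libraries under both treatments, with log2 fold changes of -0.16 with DMSO (SE 0.0474, adjusted p = 0.0162) and -0.25 with olaparib (SE 0.0472, adjusted p = 0.000334). The first of these calls was lost under 4 of 20 alternatives, among them leaving out the first (-0.14) or the third (-0.13) control library with DMSO. Its rise with olaparib in control cells was 0.13 (SE 0.0473, adjusted p = 0.0305), or 9.43%. That call was lost under library totals (0.03), in thinned libraries (0.11), without the second control library with DMSO (0.08) and without any 1 of the control libraries with olaparib (0.13 to 0.14).

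PSMB6 fell on knockdown with olaparib. Its levels were 128, 131 and 124 CPM in control cells and 110.2, 109 and 107 CPM in knockdown cells, with no overlap (-0.23, SE 0.0517, adjusted p = 0.00137). With DMSO they were 124, 119 and 134 CPM in control cells and 119, 123 and 116 CPM in knockdown cells, which overlapped (-0.08, adjusted p = 0.279). Its fall with olaparib in knockdown cells (-0.14, adjusted p = 0.0349) was lost under 10 of 20 alternatives. Of the structural beta genes, PSMB2 rose on knockdown with both treatments (0.15, adjusted p = 0.0226, and 0.19, adjusted p = 0.00373). The first of these was lost in a fit of the 2 groups alone (0.15) and without the second (0.12) or the third (0.14) control library with DMSO or without the first knockdown library with DMSO (0.11). PSMB1 fell with olaparib in both arms (-0.14, adjusted p = 0.034, and -0.18, adjusted p = 0.00627), and the call in control cells was lost under 6 of 20 alternatives. The calls of PSMB2 with olaparib in control cells (-0.12, adjusted p = 0.045) and of PSMB4 on knockdown with olaparib (-0.12, adjusted p = 0.0353) were lost under 12 and 10 of 20.

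Among the base genes, the ATPases PSMC1 to PSMC6 were all below 0 on the log2 scale under olaparib in both arms. PSMC5 and PSMC6 passed the test in control cells, and PSMC2, PSMC3, PSMC4 and PSMC5 in knockdown cells, where the calls of these 4 held under every alternative. The call of PSMC5 in control cells (-0.15, adjusted p = 0.0299) was lost under 7 of 20 alternatives and that of PSMC6 (-0.21, adjusted p = 0.0156) under 3 of 20. PSMC3 was also the 1 base gene that rose on knockdown with DMSO. PSMC3 under DMSO read 118, 113 and 125 CPM in the control arm against 147, 137 and 133 CPM in the knockdown arm (0.23, SE 0.054, adjusted p = 0.00292). PSMC3 under olaparib read 109, 114 and 104 CPM in the control arm against 114, 114 and 115 CPM in the knockdown arm (0.07, adjusted p = 0.332). The fall of PSMC3 with olaparib was 0.28 on the log2 scale in knockdown cells (-0.28, SE 0.0537, adjusted p = 0.00026). Knockdown with olaparib lowered PSMC2 (-0.18, adjusted p = 0.0095), PSMC4 (-0.21, adjusted p = 0.00606) and PSMC5 (-0.15, adjusted p = 0.0345). The first 2 calls were lost under library totals (-0.08 and -0.11) and that of PSMC5 under 8 of 20 alternatives.

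PSMD1, a scaffold subunit of the base, fell in both arms. It read 213, 187 and 207 CPM under DMSO and 164, 161 and 166 CPM under olaparib in the control arm. PSMD1 in the knockdown arm read 204, 187 and 186 CPM under DMSO and 152, 154 and 159 CPM under olaparib. The groups did not overlap and the log2 fold change was -0.31 in each arm (SE 0.0535, adjusted p = 0.00013 in control cells, and SE 0.0533, adjusted p = 0.000104 in knockdown cells). The difference between the arms was -0.01 with a 95% interval from -0.16 to 0.15. PSMD2, the other scaffold subunit, fell in knockdown cells (-0.16, adjusted p = 0.0107) and was at -0.09 in control cells (adjusted p = 0.119). PSMD4, which encodes a ubiquitin receptor, passed the test in none of the 4 comparisons.

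In the lid, 5 of 8 genes fell with olaparib in control cells and 6 of 8 in knockdown cells, beside 23.2% and 24.0% of all genes. Its largest fall in control cells was in PSMD12, a scaffold subunit, and in knockdown cells in PSMD11. PSMD12 read 93.0, 97.3 and 85.9 CPM under DMSO and 62.5, 64.9 and 69.3 CPM under olaparib in the control arm. PSMD12 in the knockdown arm read 82.2, 71.6 and 87.2 CPM under DMSO and 58.8, 64.7 and 70.4 CPM under olaparib. The groups did not overlap in either arm, although in knockdown cells the highest olaparib library came close to the lowest DMSO library. The log2 fold change was -0.49 in control cells (SE 0.0779, adjusted p = 5.52e-05), where the level fell by 28.7%, and -0.32 in knockdown cells (SE 0.0771, adjusted p = 0.00254).

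PSMD11, another scaffold subunit of the lid, fell in both arms too. It read 209, 201 and 199 CPM under DMSO and 162, 165 and 163 CPM under olaparib in the control arm. PSMD11 in the knockdown arm read 203, 197 and 199 CPM under DMSO and 147, 159 and 161 CPM under olaparib. The log2 fold changes were -0.32 (SE 0.047, adjusted p = 2.45e-05) and -0.36 (SE 0.0467, adjusted p = 4.83e-06), and the difference between the arms was -0.04 with a 95% interval from -0.18 to 0.09. PSMD6 and PSMD7 also fell in both arms, by between 0.20 and 0.28 on the log2 scale. The call of PSMD7 in knockdown cells was lost without the first knockdown library with DMSO (-0.14). PSMD14, which encodes the deubiquitinase of the lid, fell in control cells (-0.20, adjusted p = 0.00898) and was at 0.00 in knockdown cells. Without the second olaparib library of control cells its value was -0.17 and the call was lost. PSMD3 and PSMD8 fell in knockdown cells (-0.25, adjusted p = 0.00023, and -0.15, adjusted p = 0.0181), and PSMD8 lost its call in a fit of the 2 groups alone (-0.15) and without the second knockdown library with DMSO (-0.13) or the third with olaparib (-0.11). Knockdown left no lid gene past the test with DMSO, and with olaparib PSMD3 and PSMD8 were lower in knockdown cells (-0.21, adjusted p = 0.00213, and -0.22, adjusted p = 0.00142). The call of PSMD3 was lost under library totals (-0.10).

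Of the 7 assembly chaperones, 1 rose and 1 fell with olaparib in control cells and 3 rose and 2 fell in knockdown cells, beside 23.2% to 24.1% of all genes in each direction. On knockdown none rose, with 3 falls with DMSO and 2 with olaparib, beside 15.2% and 19.3% of all genes that fell. PSMD10 (gankyrin), a base chaperone that also binds the retinoblastoma protein and MDM2, had the largest change of any tested member in these data. PSMD10 under DMSO read 88.2, 84.3 and 85.8 CPM in the control arm against 57.6, 54.1 and 62.1 CPM in the knockdown arm. PSMD10 under olaparib read 83.5, 82.5 and 89.6 CPM in the control arm against 50.8, 54.7 and 55.7 CPM in the knockdown arm. Every knockdown library lay far below every control library. The log2 fold change on knockdown was -0.57 with DMSO (SE 0.0614, adjusted p = 7.06e-07), where the level fell by 32.6%, and -0.67 with olaparib (SE 0.0615, adjusted p = 6.91e-08), where it fell by 37.0%. Over all alternatives these values ran from -0.63 to -0.52 and from -0.69 to -0.57. Olaparib itself gave values of -0.01 and -0.11 for PSMD10, neither past the test. The other base chaperones, PSMD5 and PSMD9, passed the test in 1 comparison, olaparib in knockdown cells, in opposite directions (0.14, adjusted p = 0.0422, and -0.18, adjusted p = 0.031), and lost the call under 11 and 7 of 20 alternatives.

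The chaperones of the alpha ring, PSMG1 and PSMG2, act as a pair. PSMG2 was the 1 member called in all 4 comparisons. It read 41.2, 39.4 and 39.1 CPM under DMSO and 47.2, 43.4 and 47.5 CPM under olaparib in the control arm. PSMG2 in the knockdown arm read 35.2, 33.4 and 36.1 CPM under DMSO and 39.2, 39.0 and 39.9 CPM under olaparib. Olaparib libraries lay above DMSO libraries and knockdown libraries below control libraries, without overlap in any of the 4 comparisons. The log2 fold changes with olaparib were 0.21 in control cells (SE 0.0608, adjusted p = 0.00879) and 0.17 in knockdown cells (SE 0.0604, adjusted p = 0.0247). Those on knockdown were -0.19 with DMSO (adjusted p = 0.0241) and -0.23 with olaparib (adjusted p = 0.00571). All 4 calls were lost under library totals, with values of 0.11, 0.12, -0.14 and -0.13. In knockdown cells the olaparib call was also lost in a fit of the 2 groups alone (0.17) and without the second DMSO library (0.14) or without the second (0.18) or the third (0.16) olaparib library, and the knockdown call with DMSO in that kind of fit and without a count filter (-0.19 in both), without the first control library (-0.17) or the second knockdown library (-0.16).

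PSMG1 read 47.0, 48.7 and 44.8 CPM under DMSO and 46.9, 41.4 and 48.6 CPM under olaparib in the control arm. PSMG1 in the knockdown arm read 38.6, 39.2 and 38.2 CPM under DMSO and 43.1, 44.0 and 43.5 CPM under olaparib. The DMSO libraries of knockdown cells were thus the lowest group. PSMG1 fell on knockdown with DMSO (-0.28, SE 0.0648, adjusted p = 0.00293) and rose with olaparib in knockdown cells (0.17, SE 0.0641, adjusted p = 0.033). That rise was lost under library totals (0.12) and without the first (0.17) or the third (0.16) DMSO library or the second (0.16) or the third (0.17) olaparib library of the knockdown arm. PSMG3, another chaperone of the core, fell with olaparib in both arms (-0.25, adjusted p = 0.0118, and -0.18, adjusted p = 0.0474). These calls were lost without the third olaparib library of control cells (-0.19) and, in knockdown cells, under 14 of 20 alternatives.

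PSMB10, which replaces PSMB7 in the immunoproteasome, was the 1 inducible subunit with enough counts to test. PSMB10 read 19.5, 18.6 and 19.0 CPM under DMSO and 14.7, 16.4 and 13.8 CPM under olaparib in the control arm. PSMB10 in the knockdown arm read 23.1, 24.2 and 23.6 CPM under DMSO and 23.1, 19.7 and 19.8 CPM under olaparib. Every knockdown library lay above every control library under the same treatment. PSMB10 rose on knockdown by 24.3% with DMSO (a log2 fold change of 0.31, SE 0.0816, adjusted p = 0.00635) and by 39.4% with olaparib (0.48, SE 0.0841, adjusted p = 0.000164). It fell with olaparib in control cells (-0.35, SE 0.0866, adjusted p = 0.00264), where the groups did not overlap. In knockdown cells the first olaparib library was as high as the lowest DMSO library, and the value of -0.19 did not pass the test (adjusted p = 0.0589). The authors' deposited results, from likelihood-ratio statistics, put this fall just past the threshold (-0.19, adjusted p = 0.0482). Per length, PSMB10 stayed well under its constitutive counterpart. Its RPKM was 8.43%, 8.86% and 8.18% of that of PSMB7 in control cells with DMSO and 5.98%, 6.66% and 5.65% with olaparib. In knockdown cells it was 11.1%, 12.1% and 12.0% with DMSO and 11.5%, 9.40% and 9.50% with olaparib.

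PSME1 and PSME2 encode the subunits of the interferon-inducible activator that opens the core. PSME2 under DMSO read 129, 129 and 133 CPM in the control arm against 188, 178 and 166 CPM in the knockdown arm. PSME2 under olaparib read 129, 144 and 126 CPM in the control arm against 179, 182 and 183 CPM in the knockdown arm. The rise on knockdown was 35.4% with DMSO (0.44, SE 0.0564, adjusted p = 6.86e-06) and 36.2% with olaparib (0.45, SE 0.0562, adjusted p = 4.04e-06), with no overlap in either. PSME1 under DMSO read 193, 199 and 214 CPM in the control arm against 254, 238 and 234 CPM in the knockdown arm. PSME1 under olaparib read 195, 221 and 200.2 CPM in the control arm against 233, 238 and 239 CPM in the knockdown arm. PSME1 rose on knockdown with both treatments and again without overlap (0.26, SE 0.0546, adjusted p = 0.00129, and 0.20, SE 0.0545, adjusted p = 0.0059). Olaparib moved neither gene past the test in either arm, with values between -0.03 and 0.04.

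PSME3, whose protein forms a nuclear activator, fell with olaparib. It read 173, 160.2 and 166 CPM under DMSO and 147, 148 and 143 CPM under olaparib in the control arm. PSME3 in the knockdown arm read 183, 174 and 168 CPM under DMSO and 147, 156 and 151 CPM under olaparib. The groups did not overlap (-0.19, SE 0.0496, adjusted p = 0.00413 in control cells, and -0.21, SE 0.0491, adjusted p = 0.00184 in knockdown cells), and knockdown did not move PSME3 past the test. PSME4 stood between 83.6 and 99.2 CPM in all 12 libraries and was called in no comparison.

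PSMF1 encodes PI31, which inhibits the purified core. It read 131, 128 and 128 CPM under DMSO and 157, 159.8 and 156 CPM under olaparib in the control arm. PSMF1 in the knockdown arm read 121, 121 and 117 CPM under DMSO and 134, 134 and 133 CPM under olaparib. PSMF1 had the tightest replicates of any tested member, and no 2 groups overlapped. It rose with olaparib by 21.8% in control cells (0.28, SE 0.0439, adjusted p = 3.44e-05) and by 11.7% in knockdown cells (0.16, SE 0.0437, adjusted p = 0.00558). It fell on knockdown with olaparib (-0.23, SE 0.0435, adjusted p = 0.000308) and was at -0.11 with DMSO (adjusted p = 0.0732). Under library totals the olaparib values were 0.18 and 0.11 and the knockdown value with olaparib was -0.13, all still past the test.

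**Figure D3:**
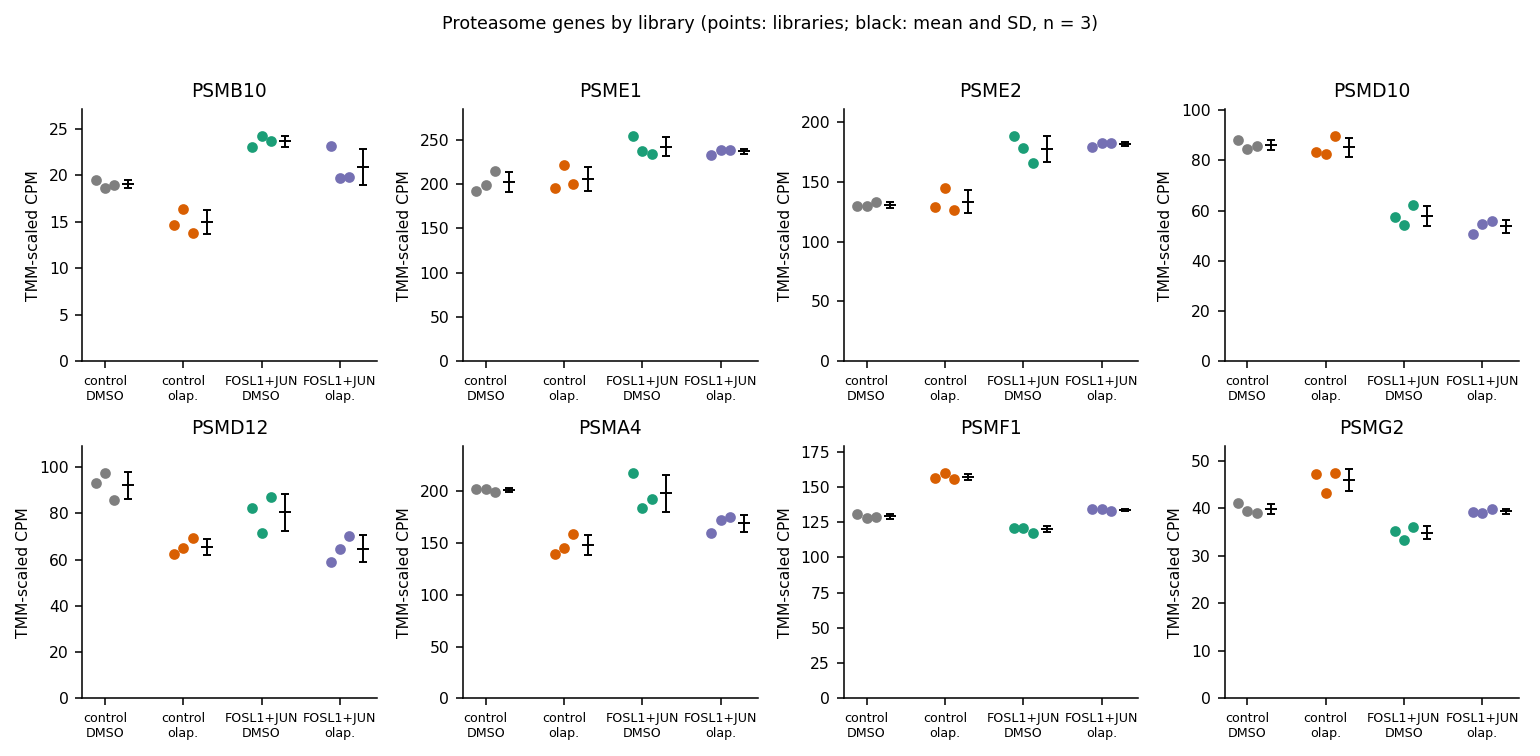
Level of 8 proteasome genes in TMM-scaled CPM on linear axes that start at 0, with 1 coloured point for each library of the 4 groups and black marks for the mean and SD (n = 3). PSMB10, PSME1 and PSME2 are higher and PSMD10 is lower in both knockdown groups, PSMD12 and PSMA4 are lower in both olaparib groups, and PSMF1 and PSMG2 are higher with olaparib within each arm.

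The 3 immunoproteasome-associated genes that rose on knockdown, PSMD10 with the largest fall on knockdown and PSMD12 with the largest fall under olaparib are shown with the 250 bases before their start of transcription, because AP-1 and the factors of the interferon response bind promoter motifs. The sequences are from RefSeq on GRCh38.p14 and were found for 42 of the 48 members, PSMB8 and PSMB9 included, of which PSMB9 is among the matches to the antioxidant response element and the CCAAT box given after them. The windows are chr16:67936851-67937100 (minus strand) for PSMB10, chr14:24146611-24146860 (minus strand) for PSME2, chr14:24135944-24136193 (plus strand) for PSME1, chrX:108091543-108091792 (minus strand) for PSMD10 and chr17:67366578-67366827 (minus strand) for PSMD12. PSME1 and PSME2 are near neighbours on chromosome 14. Capitals mark matches on either strand to the AP-1 motif TGANTCA, the antioxidant response element TGACNNNGC that NFE2L1 and NFE2L2 bind, the interferon motif made of GAAA, any 2 bases and GAAA, and the gamma-activated site TTCNNNGAA.
PSMB10: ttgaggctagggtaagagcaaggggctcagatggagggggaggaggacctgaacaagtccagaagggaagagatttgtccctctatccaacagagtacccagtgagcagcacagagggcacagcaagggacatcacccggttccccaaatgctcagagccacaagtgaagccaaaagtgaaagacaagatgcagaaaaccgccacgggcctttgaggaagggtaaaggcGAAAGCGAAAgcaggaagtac
PSME2: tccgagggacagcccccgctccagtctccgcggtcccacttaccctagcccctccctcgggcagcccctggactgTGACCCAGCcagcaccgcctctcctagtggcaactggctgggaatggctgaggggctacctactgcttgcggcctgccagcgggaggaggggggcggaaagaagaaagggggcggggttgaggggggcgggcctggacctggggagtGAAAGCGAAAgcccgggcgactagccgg
PSME1: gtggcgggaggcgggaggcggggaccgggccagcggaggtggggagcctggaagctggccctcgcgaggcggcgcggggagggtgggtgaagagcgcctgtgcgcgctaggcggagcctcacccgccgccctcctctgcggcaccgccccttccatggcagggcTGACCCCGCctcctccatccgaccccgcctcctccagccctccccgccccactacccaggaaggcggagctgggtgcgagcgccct
PSMD10: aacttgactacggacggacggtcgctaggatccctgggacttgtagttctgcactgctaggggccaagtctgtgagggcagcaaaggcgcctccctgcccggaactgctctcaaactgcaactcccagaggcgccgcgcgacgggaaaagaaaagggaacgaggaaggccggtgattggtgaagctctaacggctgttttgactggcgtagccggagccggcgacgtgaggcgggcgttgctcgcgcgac
PSMD12: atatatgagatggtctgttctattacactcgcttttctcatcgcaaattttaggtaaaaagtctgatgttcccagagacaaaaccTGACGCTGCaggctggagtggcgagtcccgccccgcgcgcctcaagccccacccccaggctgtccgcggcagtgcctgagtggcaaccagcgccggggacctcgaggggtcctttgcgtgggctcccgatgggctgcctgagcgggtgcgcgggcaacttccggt

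PSMB10 and PSME2 carry the same run, GAAAGCGAAA, starting 21 and 28 bases before the start. PSME1 carries its reverse complement beginning 5 bases after the start, outside the printed window. The chaperone gene PSMG4 carries the run too, starting 33 bases before its start. PSMG4 stood between 21.5 and 36.4 CPM with the widest replicate spread of the members. Its values on knockdown were 0.08 with DMSO and 0.32 with olaparib (adjusted p = 0.0562), not called in edgeR. In the authors' deposited results, from likelihood-ratio statistics, the value with olaparib was past the threshold (0.32, adjusted p = 0.0326). In windows from 250 bases before to 50 after the start, the interferon motif was found in 6 of 42 members (14.3%) and in 3.65% of 27305 RefSeq promoters. PSMA4 and PSMB4 were the other members with it. On knockdown with olaparib PSMA4 rose (0.19) and PSMB4 fell (-0.12), and neither was called on knockdown with DMSO. Each of these calls was lost under some alternatives. The AP-1 motif was found in 1 of 42 members (2.38%), PSMD9, and in 7.76% of all promoters, so that the PSMD10 window holds none. The antioxidant response element was found in 13 members (31.0%), among them PSMD12, PSMD1, PSME1, PSME2, PSMG1 and PSMG2, and in 13.6% of all promoters. A run that begins TGACTCA and goes on with GC would match both of these motifs. The gamma-activated site was found in 5 members (11.9%, against 7.88%), the ETS motif CCGGAAG in 13 (31.0%, against 10.7%) and the CCAAT box in 19 (45.2%, against 35.7%). These are matches of letters and not measured binding.

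The olaparib effect was measured in each arm on separate libraries. The 10 genes PSMA4, PSMB1, PSMC5, PSMD1, PSMD6, PSMD7, PSMD11, PSMD12, PSME3 and PSMG3 fell in both arms, which is 66.7% of the 15 that fell in control cells and 52.6% of the 19 that fell in knockdown cells. Of all genes that fell, 65.4% and 63.3% did so in both arms. PSMF1 and PSMG2 rose in both (66.7% of 3 and 40% of 5, beside 68.9% and 67.6% of all genes that rose). No member rose in 1 arm and fell in the other, as did 52 of the 3863 genes called in both arms. For the knockdown effect, also measured on separate libraries with DMSO and with olaparib, PSMB2, PSMB10, PSME1 and PSME2 rose in both settings (80% of 5 and 66.7% of 6, beside 59.2% and 45.7% of all genes that rose). PSMB7, PSMD10 and PSMG2 fell in both (50% of 6 and 25% of 12, beside 65.5% and 51.7% of all genes that fell). Again no member went opposite ways, as did 54 of the 2315 genes called in both settings. PSMB5, PSMC1, PSMD4, PSMD13, PSME4 and PSMG4 were called in none of the 4 comparisons.

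**Figure D4:**
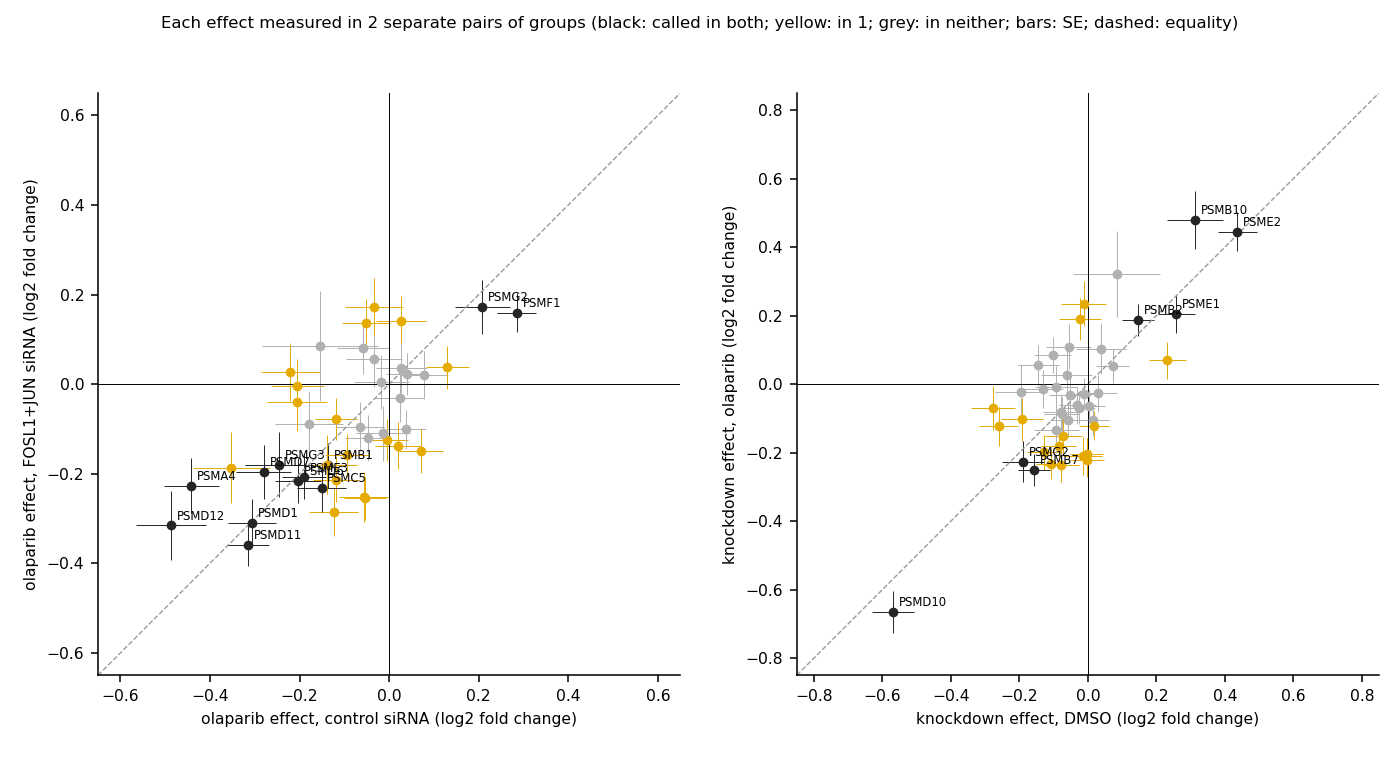
Log2 fold change of each tested proteasome gene with olaparib in control against knockdown cells (left) and on knockdown with DMSO against olaparib (right), with standard errors as bars and equality dashed. Named black points passed the test in both, and all of them have the same sign on both axes. PSMD10 stands alone at -0.57 and -0.67 on the right.

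Whether the olaparib effect differed between the arms was tested as an interaction. No member passed at an adjusted p below 0.05 in edgeR, beside 2.84% of all genes with a higher and 2.85% with a lower olaparib effect in knockdown cells. In edgeR 11 of the 43 members had an unadjusted p below 0.05, a share near that of all genes (2722 of 12118, or 22.5%). The lowest edgeR adjusted p was 0.0698, for the lid gene PSMD8. PSMD8 read 199, 189 and 198 CPM under DMSO and 208, 208 and 200.5 CPM under olaparib in the control arm. PSMD8 in the knockdown arm read 192, 200.5 and 192 CPM under DMSO and 186, 177 and 165 CPM under olaparib. The difference in its olaparib effect was -0.22 (95% interval -0.37 to -0.07), and DESeq2 gave it an adjusted p of 0.0415, its 1 called member. Leaving out the first olaparib library of knockdown cells brought PSMD8 (-0.26, adjusted p = 0.0251), PSMD3 (-0.23, adjusted p = 0.0387) and PSMA3 (0.30, adjusted p = 0.0339) past the test, and leaving out the first DMSO library of that arm brought PSMA4 past it (0.29, adjusted p = 0.0461). For PSMB10 the difference was 0.17 with an interval from -0.08 to 0.41, and for PSMD12 it was 0.17 with an interval from -0.06 to 0.40. The larger fall of both in control cells was thus not told apart from the fall in knockdown cells.

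Genes that work with the proteasome but carry other names were taken as a list of 12, all tested. With olaparib 2 rose and 2 fell in control cells (16.7% each, beside 23.6% and 23.2% of all genes). In knockdown cells 5 rose (41.7%, beside 24.1%) and none fell, with list medians of 0.05 and 0.14 against -0.01 for all genes in each. SEM1, a small lid subunit that also binds BRCA2, read 122, 119 and 125 CPM under DMSO and 93.4, 101 and 102 CPM under olaparib in the control arm (-0.30, SE 0.0606, adjusted p = 0.00049). In knockdown cells it was at -0.10 and not called. POMP, the maturation factor of the core, fell in control cells (-0.25, SE 0.0799, adjusted p = 0.0181) and was at -0.15 in knockdown cells (adjusted p = 0.119). The call of POMP was lost without the second DMSO library (-0.18) or the first olaparib library (-0.20) of control cells. PAAF1, which binds the ATPases of the base, fell on knockdown with DMSO (-0.35, adjusted p = 0.0028) and rose with olaparib in knockdown cells (0.43, SE 0.0782, adjusted p = 0.000179). The thioredoxin-like cap protein gene TXNL1 was higher with olaparib in both arms (0.18 and 0.19), with calls lost under 8 and 6 of 20 alternatives. AKIRIN2, which brings proteasomes into the nucleus, rose with olaparib in control cells (0.16, adjusted p = 0.0349, lost under 5 of 20 alternatives) and in knockdown cells (0.17, adjusted p = 0.0309, lost under 6 of 20). It fell on knockdown with DMSO (-0.24, adjusted p = 0.00567) and with olaparib (-0.24, adjusted p = 0.00453, lost under library totals at -0.14). On knockdown the list held no rise, with 3 falls with DMSO (25%, beside 15.2% of all genes) and 1 with olaparib (8.33%, beside 19.3%) and medians of -0.14 and -0.04. ZFAND2A was the other gene named for knockdown with DMSO (-0.32, adjusted p = 0.0388, lost under 11 of 20 alternatives).

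Genes that control transcription of proteasome genes were a list of 10, all tested. NFE2L1 itself passed the test in no comparison: it read 296, 297 and 298 CPM under DMSO and 285, 292 and 272 CPM under olaparib in the control arm. NFE2L1 in the knockdown arm read 289, 295 and 269 CPM under DMSO and 270.2, 267 and 258 CPM under olaparib. Of the list, 4 genes rose and none fell with olaparib in control cells (40% beside 23.6% of all genes that rose), and 5 rose and none fell in knockdown cells (50% beside 24.1%). BACH1, a repressor that binds antioxidant response elements, rose in both arms (0.80, SE 0.0778, adjusted p = 1.42e-07, and 0.79, SE 0.0779, adjusted p = 1.54e-07), as did NFE2L2 (0.44 and 0.56) and the small partner protein genes MAFF (0.76 and 0.56) and MAFG (0.62 and 0.37). BACH1 fell on knockdown (-0.30, adjusted p = 0.00845 with DMSO, and -0.31, adjusted p = 0.00297 with olaparib). MAFG fell on knockdown with olaparib (-0.33, adjusted p = 0.000324). The NFE2L1 relative NFE2L3 was called higher on knockdown with both treatments (0.98, adjusted p = 0.012, and 1.19, adjusted p = 0.00233). The first call was lost in DESeq2 (0.98) and without the second control library (0.75). NFE2L3 read between 0.41 and 0.83 CPM in control libraries and between 1.03 and 1.28 CPM in knockdown libraries. It thus passed the expression filter only through the arm where it was high, and its calls carry that limit. NFE2L3 is the 1 rise counted for the list on knockdown under each treatment. In all, 1 gene of the list rose and 1 fell on knockdown with DMSO (10% each, beside 14.7% and 15.2% of all genes). With olaparib 1 rose and 4 fell (10% and 40%, beside 19.0% and 19.3%).

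Ubiquitin genes and carriers of substrates to the proteasome were a list of 19, of which 17 were tested. With olaparib 8 rose and 4 fell in control cells (47.1% and 23.5%, beside 23.6% and 23.2% of all genes). In knockdown cells 4 rose and 6 fell (23.5% and 35.3%, beside 24.1% and 24.0%). VCP, the ATPase that extracts ubiquitylated proteins, read 1205, 1077 and 1207 CPM under DMSO and 873, 888 and 864 CPM under olaparib in the control arm. VCP in the knockdown arm read 1164, 1142 and 1158 CPM under DMSO and 808, 820.5 and 802 CPM under olaparib. It fell in both arms (-0.41, SE 0.0448, adjusted p = 5.69e-07, and -0.51, SE 0.0448, adjusted p = 3.64e-08), as did its cofactor gene NPLOC4 (-0.36 and -0.38). The VCP cofactor gene FAF1 rose in both arms (0.41 and 0.39). On knockdown 1 gene of the list rose and 2 fell with DMSO (5.88% and 11.8%, beside 14.7% and 15.2% of all genes), and none rose and 6 fell with olaparib (35.3% beside 19.3%). UBB rose on knockdown with DMSO (0.11, adjusted p = 0.0477), a call lost under 13 of 20.

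Genes that load proteasome products onto class I molecules, with their regulators, were a list of 18, of which 13 were tested. On knockdown 6 rose and 3 fell with DMSO (46.2% and 23.1%, beside 14.7% and 15.2% of all genes). With olaparib 5 rose and 2 fell (38.5% and 15.4%, beside 19.0% and 19.3%). IRF1 encodes a transcription factor of immunoproteasome genes. IRF1 under DMSO read 39.8, 35.8 and 42.5 CPM in the control arm against 64.5, 64.2 and 65.9 CPM in the knockdown arm. IRF1 under olaparib read 26.6, 30.6 and 30.2 CPM in the control arm against 62.4, 62.7 and 58.8 CPM in the knockdown arm. Like PSMB10, it was thus highest in knockdown cells and lowest in control cells with olaparib (0.72, SE 0.0687, adjusted p = 1.44e-07 on knockdown with DMSO, and 1.07, SE 0.0702, adjusted p = 5.77e-10 with olaparib). It fell with olaparib in control cells (-0.43, SE 0.0727, adjusted p = 8.6e-05). The tapasin relative gene TAPBPL rose on knockdown with DMSO (1.00, adjusted p = 0.00052) and with olaparib (0.74, adjusted p = 0.00275). The peptide-trimming gene ERAP2 rose on knockdown with olaparib (1.24, adjusted p = 0.000309) and on knockdown with DMSO (0.50, adjusted p = 0.0379, lost under 9 of 20 alternatives). ERAP2 was low throughout. It read 2.23, 2.39 and 2.08 CPM under DMSO and 0.51, 0.80 and 0.95 CPM under olaparib in the control arm. In the knockdown arm it read 3.07, 3.57 and 2.88 CPM under DMSO and 1.85, 1.73 and 2.09 CPM under olaparib. Its largest fold changes thus rest on a group below 1 CPM. The chaperone genes CALR and PDIA3 fell on knockdown with both treatments, by between 0.23 and 0.33 on the log2 scale. Under olaparib, 2 of the list rose and 3 fell in control cells (15.4% and 23.1%, beside 23.6% and 23.2% of all genes) and 2 rose and 2 fell in knockdown cells (15.4% each, beside 24.1% and 24.0%). The falls included ERAP2 in both arms (-1.52, adjusted p = 3.79e-05, and -0.77, adjusted p = 0.00112) and NLRC5 in knockdown cells (-0.34, adjusted p = 0.0195, lost under 4 of 20 alternatives). CALR rose in control cells (0.13, adjusted p = 0.0289, lost under 5 of 20 alternatives) and the aminopeptidase gene LAP3 in knockdown cells (0.20, adjusted p = 0.00599).

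Antisense genes beside 2 of the members fell with olaparib as well. The antisense gene PSMD6-AS2 was also tested, but read only between 0.31 and 1.11 CPM. Its olaparib and DMSO libraries overlapped in both arms. PSMA3-AS1 read 6.61, 7.52 and 6.77 CPM under DMSO and 3.79, 3.81 and 4.16 CPM under olaparib in the control arm. PSMA3-AS1 in the knockdown arm read 9.21, 7.63 and 7.62 CPM under DMSO and 4.81, 4.05 and 5.39 CPM under olaparib. It fell in both arms (-0.82, SE 0.137, adjusted p = 7.84e-05, and -0.81, SE 0.123, adjusted p = 3.12e-05). PSMG3-AS1 also fell in both (-0.93, SE 0.182, adjusted p = 0.00037, and -0.70, SE 0.156, adjusted p = 0.00115). The strand setting of the counting is not given in the sources used here, so reads of PSMA3 and PSMG3 cannot be told apart from those of these partners.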

How the data were processed

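RNA of 12 BT549 libraries was sequenced and, per the submitters' processing notes, bcl2fastq 2.20.0.422 made the base calls. For the aligner, counter, genome build, annotation and strand setting, nothing is given in the sources used here. The authors deposited raw counts for 27046 rows with a gene length, and a table of log2 fold changes with false discovery rates (adjusted p-values) for 12106 genes, which per the file headers rest on likelihood-ratio statistics. The log-scaled sheets of the same workbook were not used.

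The counts were analysed with edgeR 4.0.16 in R 4.3.3. The 51 rows without a symbol, between 0.00223% and 0.00311% of a library, were left out. Genes over 1 CPM in at least 3 libraries were kept, 12118 in all, scaled by TMM and fitted by the quasi-likelihood F test over all 4 groups, with 8 residual degrees of freedom, a common biological coefficient of variation of 6.10%, and Benjamini-Hochberg adjustment over all tested genes. A gene was called at an adjusted p below 0.05. The difference in the olaparib effect between arms was an interaction term in the same fit. CPM are TMM-scaled, and RPKM divide them by the deposited length. Totals of 13762783 to 39714918 counts set the counting precision. The code was tested on simulated data. Alternatives included DESeq2 1.42.0, and figures were drawn with matplotlib 3.10.9 in Python 3.11.15.

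Members and lists were chosen with earlier results of these data known. Values in every library were given for the inducible subunits, activators and inhibitor, and for the 3 largest rises and 3 largest falls among called members of each comparison; of other lists, the 2 largest rises and falls, NFE2L1 and POMP. Further members and list genes were named after their values were seen. Reads shared with pseudogenes or antisense genes may be split in ways that the counts do not show. Results of some list genes are not reported here, although the counts over the lists include them.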

Additional observations from a re-analysis of the deposited data

Results flagged for a closer look

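Among the named genes of the partner, transcription, ubiquitin and class I loading lists, the olaparib effect differed between knockdown and control cells for 3. This was by the edgeR interaction test with Benjamini-Hochberg adjustment, which no proteasome gene passed. The siRNA targets FOSL1 and JUN lie outside these lists. In the authors' deposited results, from likelihood-ratio statistics, they differed by -1.14 (adjusted p = 1.97e-16) and -0.57 (adjusted p = 0.00175). For IRF1 the difference on the log2 scale was 0.35 (adjusted p = 0.0403).

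SQSTM1, a ubiquitin-binding autophagy receptor gene, differed by -0.30 (adjusted p = 0.0113). It read 699.9, 649 and 681 CPM under DMSO and 796, 772 and 747 CPM under olaparib in the control arm. SQSTM1 in the knockdown arm read 669, 691 and 681 CPM under DMSO and 665, 621 and 598 CPM under olaparib. UBA1, the main ubiquitin-activating enzyme gene, differed by -0.23 (adjusted p = 0.0405). The call of SQSTM1 held under all 19 alternatives for this test, and those of IRF1 and UBA1 were lost under 10 and 11 of them.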

How the results depend on the processing

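Over the 28 member results chosen by size, none of 560 values under the alternatives changed sign and 18 values, of 5 results, lost the call. Scaling by library totals alone gave 1 rise and 26 falls with olaparib in control cells and 1 rise among knockdown cells. It gave 3 falls on knockdown with DMSO, and 13 rises and 5 falls on knockdown with olaparib. The counts of all genes under that scaling are given above. For rises with olaparib in knockdown cells, a fit of the 2 groups alone gave 2, thinning to the smallest library gave 3, and 3 were called in the authors' deposited table. In DESeq2 the interaction gave 1 fall, PSMD8. Leaving out 1 library at a time gave, with olaparib, 11 to 17 falls and 2 to 3 rises in control cells. In knockdown cells it gave 15 to 20 falls and 1 to 6 rises. The rises there were fewest without the second or the third olaparib library, when 2437 and 2669 of all genes rose. For knockdown with DMSO, leaving out 1 library gave 3 to 9 falls and 4 to 5 rises. The falls were fewest without the first control library, when 1439 of all genes fell. For knockdown with olaparib it gave 10 to 12 falls and 5 to 6 rises, and for the interaction 0 to 2 falls and 0 to 1 rises. The causes were not tested.

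Libraries that share a replicate number did not deviate together: over 18 pairs the correlation ran from -0.27 to 0.20, and 3 of 12 libraries correlated best with their own number. With the replicate number as a block, rises and falls were 3 and 15 with olaparib in control cells, 4 and 18 in knockdown cells, 5 and 6 on knockdown with DMSO and 7 and 11 with olaparib, and the interaction gave 0 calls. Depth differed between libraries, and thinning all of them to the smallest total moved no other count of members by over 1.5 times.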
